A study of Homo sapiens with 8 samples.

Results

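The transcripts described here come from 45 genes of mitosis and the spindle, chosen by name from the cyclins and kinases that start mitosis to the proteins that end it. Each gene was read from the probe set that names it alone and had the highest mean over all 8 arrays. All 45 were on the array, out of 19774 genes with such a probe set, and all 45 passed a filter on low levels that left 14517 genes to be tested.

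The cells were 4 human neuroblastoma lines. SKNAS is labelled as a c-Myc line, and NB1691 and SKNBE2 are labelled as N-Myc lines. SKNAS/shHIF1a is, by its name, a derivative of SKNAS that carries a short hairpin RNA against the hypoxia factor HIF1A, and it is also labelled N-Myc. Every line received either vehicle or ciclopirox at 2.5 µM, for 48 h. Ciclopirox is a hydroxypyridone antifungal agent that chelates iron and that the series presents as an inhibitor of the histone demethylase JMJD2B. Each line and treatment had 1 array, which gives 4 arrays per treatment. The labels do not say whether arrays came from separate cultures, whether the derivative was 1 clone or a pool, or whether the SKNAS arrays carried a control hairpin. The p-values therefore measure only the spread between these samples, and the number of arrays limits their precision. That spread holds the differences between lines in the change from vehicle to ciclopirox, as well as any technical spread. A gene whose change differs between lines thus has a wider error. SKNAS and SKNAS/shHIF1a are parent and derivative by name, so the 4 lines are not all independent.

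Values are log2 signals, on which a difference of 1 is 2-fold. Array medians lay between 3.47 and 3.52. HIF1A, the target of the hairpin, read 12.25 in SKNAS, 12.05 in NB1691, 12.01 in SKNBE2 and 11.71 in SKNAS/shHIF1a under vehicle, and 11.94, 12.12, 11.88 and 11.09 in the same order under ciclopirox. Its difference between SKNAS/shHIF1a and SKNAS was -0.69 ± 0.21 (SE, adjusted p = 0.257, limma), so a knockdown at the transcript level did not pass the test. MYCN read 2.77 in SKNAS, 12.05 in NB1691, 12.48 in SKNBE2 and 5.41 in SKNAS/shHIF1a under vehicle, and MYC read 10.16 in SKNAS, 2.70 in NB1691, 2.66 in SKNBE2 and 9.86 in SKNAS/shHIF1a, so that the SKNAS/shHIF1a array kept a high MYC signal while its label says N-Myc. Of 9 neuroblastoma markers, 8 were on the array. GATA3 lay between 9.74 and 12.07 in all 8 arrays, and HAND2 only between 3.99 and 5.30. Under vehicle TH and DBH were low in SKNAS (3.15 and 4.79) and SKNAS/shHIF1a (3.59 and 5.72). They were higher in NB1691 (7.16 and 10.90) and SKNBE2 (7.99 and 9.97). PHOX2A, ISL1 and CHGB were also lower in the vehicle arrays of SKNAS and SKNAS/shHIF1a than in those of NB1691 and SKNBE2. CHGA did not split the lines this way under vehicle, with 11.28 in SKNAS, 12.55 in SKNAS/shHIF1a, 13.15 in NB1691 and 12.42 in SKNBE2. PTPRC, a leukocyte marker, was high in the vehicle arrays of SKNAS (11.53) and SKNAS/shHIF1a (9.57) and low in NB1691 (3.12) and SKNBE2 (3.22). CORO1A, another leukocyte marker, had the opposite order, with 4.59, 4.56, 5.48 and 6.28 in the same lines. Of the 6 lymphoid and myeloid markers on the array, CD3E, MS4A1, CD14 and LYZ stayed below the filter, and the summed level ran from 6.45 to 11.55 under vehicle and from 6.06 to 10.48 under ciclopirox. All 6 fibroblast markers passed the filter, with a summed level from 9.08 to 14.39 under vehicle and from 8.91 to 14.21 under ciclopirox. COL3A1 was high in SKNAS and SKNAS/shHIF1a only (12.99 and 13.37 under vehicle), LUM and DCN were near 12 there and also read 9.03 and 9.10 in SKNBE2, and COL1A2 was low in every vehicle array (3.09 to 4.58). Of 6 epithelial markers 5 passed the filter, and KRT18 read 10.34 in SKNAS and 6.69 in SKNAS/shHIF1a under vehicle. Of 4 endothelial markers 3 passed, and TEK read 3.63 in SKNAS and 6.78 in SKNAS/shHIF1a under vehicle. The part of these signals in the results was not tested.

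Mitosis begins when CDK1 joined to cyclin B becomes active, chromosomes condense, and microtubules of the spindle attach to the kinetochore built on each centromere. The checkpoint proteins hold the anaphase-promoting complex back until every kinetochore is attached, after which cyclin B and securin are degraded, sister chromatids part and the cell divides. Most of these transcripts are made late in the cell cycle, and many of their promoters carry a cell cycle homology region (CHR) and CCAAT boxes, through which the MuvB complexes and the factor NF-Y are known to act. Neuroblastoma cells divide rapidly, and several of the proteins, such as the kinase Aurora A, have been studied there as drug targets.

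The promoters of 5 of the 7 members that were at least 2-fold lower under ciclopirox in both SKNBE2 and SKNAS/shHIF1a, and that of MKI67, the 1 member whose change in SKNAS/shHIF1a was above 0, are shown with these elements. They cover the 200 bases before the start site, 5′ to 3′ on the strand of the gene, from RefSeq on GRCh38.p14. Capitals mark each CHR (TTTGAA or TTCGAA) and each CCAAT on either strand, so that CCAAT on the other strand reads ATTGG and TTTGAA reads TTCAAA.
HMMR (chr5:163460432-163460631, plus strand): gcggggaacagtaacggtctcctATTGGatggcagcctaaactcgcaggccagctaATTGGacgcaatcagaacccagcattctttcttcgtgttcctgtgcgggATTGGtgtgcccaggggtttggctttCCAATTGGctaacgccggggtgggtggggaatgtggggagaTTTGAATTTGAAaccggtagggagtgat
PLK1 (chr16:23678689-23678888, plus strand): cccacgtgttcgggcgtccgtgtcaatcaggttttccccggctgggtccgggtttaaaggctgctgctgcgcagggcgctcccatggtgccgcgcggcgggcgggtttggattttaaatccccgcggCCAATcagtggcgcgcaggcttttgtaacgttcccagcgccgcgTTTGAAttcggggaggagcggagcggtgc
CENPA (chr2:26785856-26786055, plus strand): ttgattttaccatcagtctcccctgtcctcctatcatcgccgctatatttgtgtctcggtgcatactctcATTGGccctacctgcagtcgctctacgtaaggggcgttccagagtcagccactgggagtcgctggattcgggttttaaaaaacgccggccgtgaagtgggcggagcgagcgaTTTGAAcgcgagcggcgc
CCNB1 (chr5:69166950-69167149, plus strand): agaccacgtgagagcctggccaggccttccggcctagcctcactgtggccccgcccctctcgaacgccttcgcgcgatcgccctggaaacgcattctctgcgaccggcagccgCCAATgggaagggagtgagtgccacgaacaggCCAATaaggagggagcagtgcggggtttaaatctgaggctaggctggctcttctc
KIF20A (chr5:138178912-138179111, plus strand): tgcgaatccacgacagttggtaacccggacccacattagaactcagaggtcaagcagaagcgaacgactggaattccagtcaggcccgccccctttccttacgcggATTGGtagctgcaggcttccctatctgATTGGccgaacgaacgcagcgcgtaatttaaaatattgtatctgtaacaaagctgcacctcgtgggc
MKI67 (chr10:128126424-128126623, minus strand): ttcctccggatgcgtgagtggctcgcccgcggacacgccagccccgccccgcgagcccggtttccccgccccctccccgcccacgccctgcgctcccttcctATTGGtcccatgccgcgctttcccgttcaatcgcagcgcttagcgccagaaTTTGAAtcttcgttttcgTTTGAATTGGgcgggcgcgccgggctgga

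In a window from 250 bases before to 50 after the start, 38 of the 45 members matched a promoter in the RefSeq table by symbol. The CHR letters occurred in 29 of these 38 genes (76.3%), against 19.5% of 27305 genes with a promoter in the same table. CCAAT also occurred in 29 (76.3%), against 39.7% of genes, and 22 members (57.9%) held both in 1 promoter, against 7.85% of genes. At least 2 CCAAT boxes were found in 17 members (44.7%, against 12.9%), as in HMMR and CCNB1 above. E2F-type letters (TTTGGCGC, TTTCCCGC or TTTGGCGG) were found in 3 members (7.89%, against 3.5%) and the E-box CACGTG in 5 (13.2%, against 8.77%), searched on both strands. A CHR and a CCAAT match can share 1 base, as in MKI67. The median change from vehicle to ciclopirox of the 29 members with the CHR letters was -0.57 in SKNBE2 and -0.74 in SKNAS/shHIF1a. That of the 9 without these letters was -0.75 in both lines. The 9 were AURKB, CCNA2, CCNB1, CENPE, KIF20A, KIF2C, NCAPH, NEK2 and PTTG1. Only TTTGAA and TTCGAA were searched, so these 9 may hold a CHR of other letters. A match is a description of the letters, and was not tested for binding.

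The first comparison set ciclopirox against vehicle over the 4 lines. Under ciclopirox nearly all mitosis genes were lower in SKNBE2 and in SKNAS/shHIF1a, and most were slightly higher in SKNAS and NB1691. Averaged over the lines, 39 of 45 members had an estimate below 0, with a median of -0.23 against -0.01 over all genes tested. The size of this median rests on which lines enter: it was -0.06 without SKNAS/shHIF1a, -0.13 without SKNBE2, -0.35 without SKNAS and -0.41 without NB1691. In the limma fit with cell line as a block, no member passed an adjusted p of 0.05 (0 of 14517 genes did, 0%), and the smallest adjusted p among the members was 0.191. At an unadjusted p under 0.05 there were 2599 genes (17.9% of those tested), and 10.2% of those tested were lower at that level. The members at that level were 5 (11.1%), all lower: CCNB1, CENPE, HMMR, KIF14 and PLK1. In these bulk samples a smaller share of dividing cells and less RNA per dividing cell cannot be told apart.

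Within a line there is 1 pair of arrays and no test, so counts are given beside the share of all tested genes that did the same. In SKNAS the members' median change was 0.09, with a range from -0.30 (SMC2) to 0.72 (MKI67). In NB1691 the median was 0.22, with a range from -0.95 (CENPE) to 1.67 (MKI67). In SKNBE2 it was -0.61, from -1.80 (HMMR) to 0.31 (CDC25B), and in SKNAS/shHIF1a it was -0.75, from -1.41 (SPC25) to 0.22 (MKI67). The medians over all genes tested lay between -0.03 and -0.01 in the 4 lines, where no such shift was seen.

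Members below 0 numbered 11 of 45 in SKNAS, where 52.8% of all genes were below 0, and 10 in NB1691, where 52.1% were. In SKNBE2 they numbered 44, all but the phosphatase gene CDC25B, against 51.1% of genes, and in SKNAS/shHIF1a again 44, all but MKI67, against 52.8%. At least 2-fold lower were 12 members in SKNBE2 (26.7%), where 1.25% of genes were that much lower, and 11 in SKNAS/shHIF1a (24.4%), where 4.31% were. No member was 2-fold lower in SKNAS or NB1691, where 1.62% and 5.12% of genes were. MKI67 in NB1691 was the 1 value at least 2-fold higher. The shares of all genes that much higher were 3.38% in SKNAS, 3.31% in NB1691, 2.11% in SKNBE2 and 5.52% in SKNAS/shHIF1a.

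The 7 members (15.6%) at least 2-fold lower in both SKNBE2 and SKNAS/shHIF1a were AURKA, CCNB1, CENPA, HMMR, KIF20A, PLK1 and SPC25. The share of all genes that much lower in both lines was not counted, but it cannot exceed the 1.25% in SKNBE2 alone. A pattern of lower in SKNBE2 and SKNAS/shHIF1a and higher in both SKNAS and NB1691 was seen for 28 members (62.2%), against 3.65% of all genes. Members lower in all 4 lines were 6 (BUB3, CCNB1, HMMR, KIF11, KIF14 and PLK1, 13.3%), a share near the 16% of all genes that were. None was higher in all 4, where 11.8% of genes were.

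**Figure D1:**
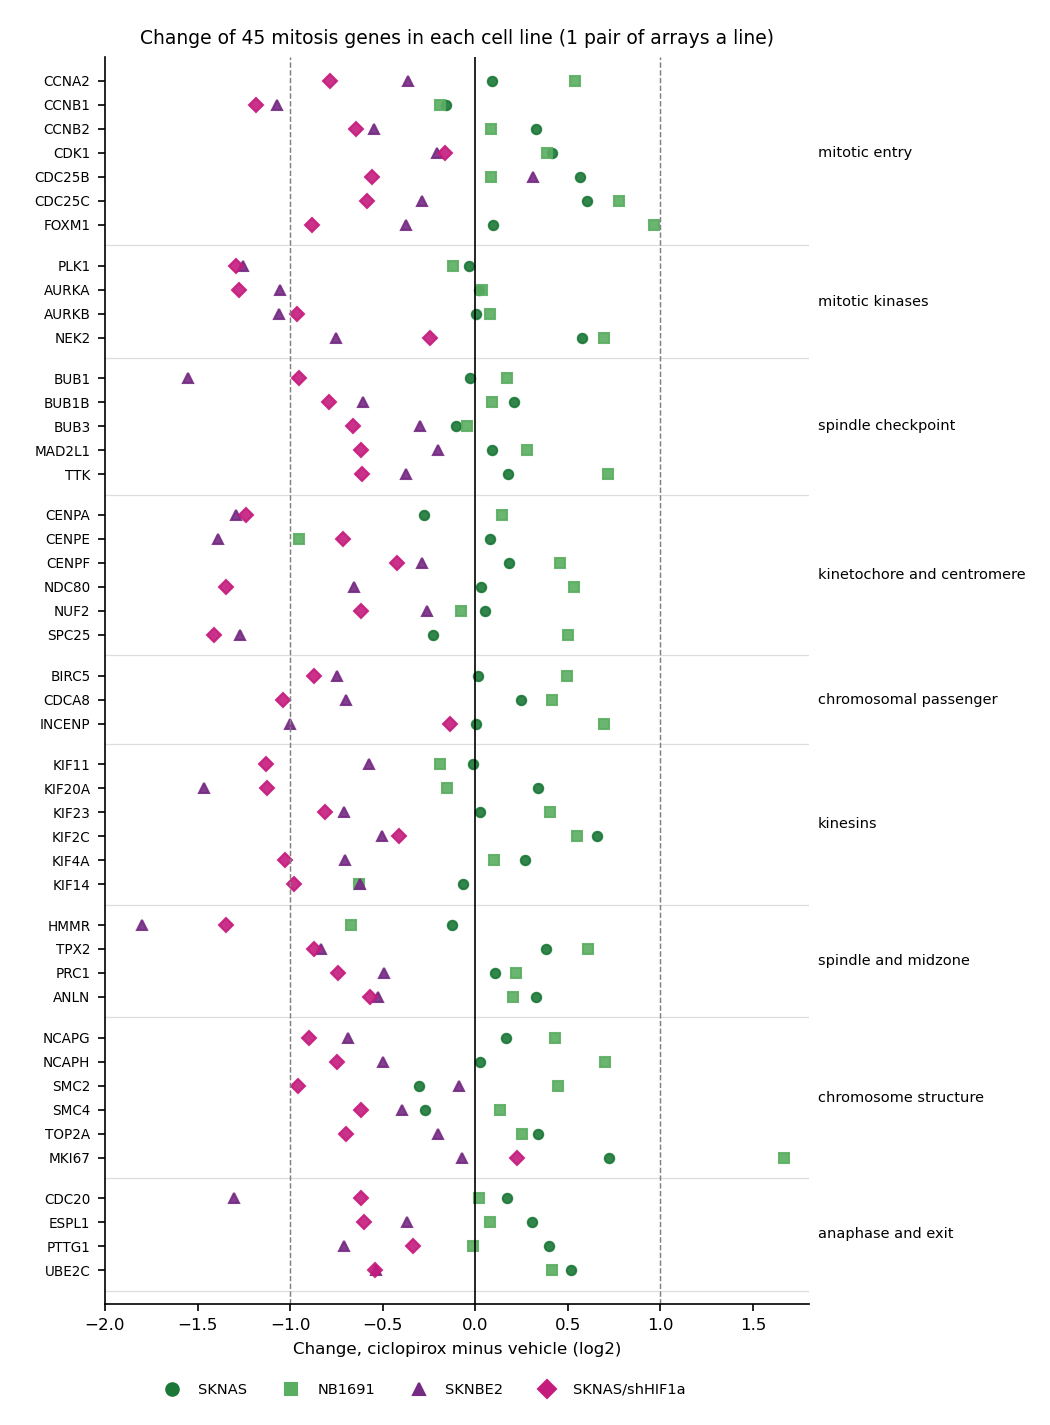
Change from vehicle to ciclopirox (log2) of each of the 45 genes, grouped by function, with 1 marker per cell line from 1 pair of arrays; dashed lines mark 2-fold. The markers of SKNBE2 and SKNAS/shHIF1a lie left of 0 for 44 genes each, while those of SKNAS and NB1691 lie mostly right of it.

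Among the 7 genes of mitotic entry, the medians of the change were 0.33 in SKNAS, 0.39 in NB1691, -0.36 in SKNBE2 and -0.64 in SKNAS/shHIF1a. CCNB1, which encodes the cyclin that activates CDK1, read 11.26 in SKNAS, 11.56 in NB1691, 11.77 in SKNBE2 and 11.01 in SKNAS/shHIF1a under vehicle. Under ciclopirox it read 11.10 in SKNAS, 11.37 in NB1691, 10.70 in SKNBE2 and 9.83 in SKNAS/shHIF1a. Its level was thus lower in every line, with changes of -0.16, -0.19, -1.07 and -1.19 in that order and a mean of -0.65 ± 0.55 (SD, n = 4 lines, adjusted p = 0.232). The SKNAS and NB1691 pairs differed little, and the other pairs differed by more than 2-fold. A second probe set, with a mean level of 9.57, was also below 0 in every line, but with -0.18, -0.85, -0.62 and -1.38 its NB1691 pair differed by more than its SKNBE2 pair.

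CCNB2, the second B-type cyclin, read 10.19, 10.76, 10.93 and 9.99 under vehicle and 10.52, 10.84, 10.38 and 9.34 under ciclopirox, in the order SKNAS, NB1691, SKNBE2, SKNAS/shHIF1a that is used from here on. It was higher under ciclopirox in SKNAS and NB1691 and lower in the other lines. CDK1, the kinase itself, read 11.59, 12.07, 11.86 and 11.51 under vehicle and 12.01, 12.46, 11.65 and 11.34 under ciclopirox. Its changes of 0.42, 0.39, -0.21 and -0.17 split the lines in the same way but were small in the lines where it was lower. Other CDK1 probe sets differed there by more. Those with mean levels of 10.74 and 10.09 gave -0.55 and -0.56 in SKNBE2 and -0.43 and -0.30 in SKNAS/shHIF1a. One with a mean level of 3.93 gave 0.29 in SKNBE2 and -0.79 in SKNAS/shHIF1a. FOXM1, a transcription factor that drives many of these genes, read 9.09, 8.93, 9.70 and 8.78 under vehicle and 9.18, 9.89, 9.33 and 7.90 under ciclopirox. With changes of 0.094, 0.97, -0.38 and -0.88 it had the widest spread of the group, 1.96-fold higher in NB1691 and 1.84-fold lower in SKNAS/shHIF1a. CDC25B, a phosphatase that activates CDK1, was the 1 member higher in SKNBE2, with changes of 0.57, 0.082, 0.31 and -0.56. CCNA2 and CDC25C were higher in SKNAS and NB1691 and lower in the other lines.

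The 4 mitotic kinases had medians of 0.01, 0.06, -1.06 and -1.12. PLK1, which acts from mitotic entry to cytokinesis, read 5.78 in SKNAS, 5.74 in NB1691, 6.42 in SKNBE2 and 5.59 in SKNAS/shHIF1a under vehicle. Under ciclopirox it read 5.74 in SKNAS, 5.62 in NB1691, 5.16 in SKNBE2 and 4.30 in SKNAS/shHIF1a, which was 2.39-fold lower in SKNBE2 and 2.45-fold lower in SKNAS/shHIF1a. The mean change was -0.67 ± 0.69 (SD, n = 4 lines, adjusted p = 0.274). AURKA, the kinase of the spindle poles, read 10.50, 11.04, 10.76 and 10.32 under vehicle and 10.53, 11.07, 9.70 and 9.04 under ciclopirox. It was higher by no more than 0.035 in SKNAS and NB1691 and more than 2-fold lower in the other lines.

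AURKB, the kinase of the chromosomal passenger complex, read 7.32, 9.93, 8.77 and 6.84 under vehicle and 7.32, 10.01, 7.70 and 5.87 under ciclopirox, with changes of 0.0044, 0.081, -1.06 and -0.96. Its second probe set, with a mean level of 4.75, gave 0.54, 0.75, -0.38 and 0.61 instead, so the direction in SKNAS/shHIF1a depends on the probe set. NEK2, a kinase that separates the centrosomes, read 9.81, 10.60, 9.74 and 9.65 under vehicle and 10.38, 11.29, 8.99 and 9.41 under ciclopirox. It was higher in SKNAS and NB1691 and lower in the other lines, with its lowest value in the treated SKNBE2 array.

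**Figure D2:**
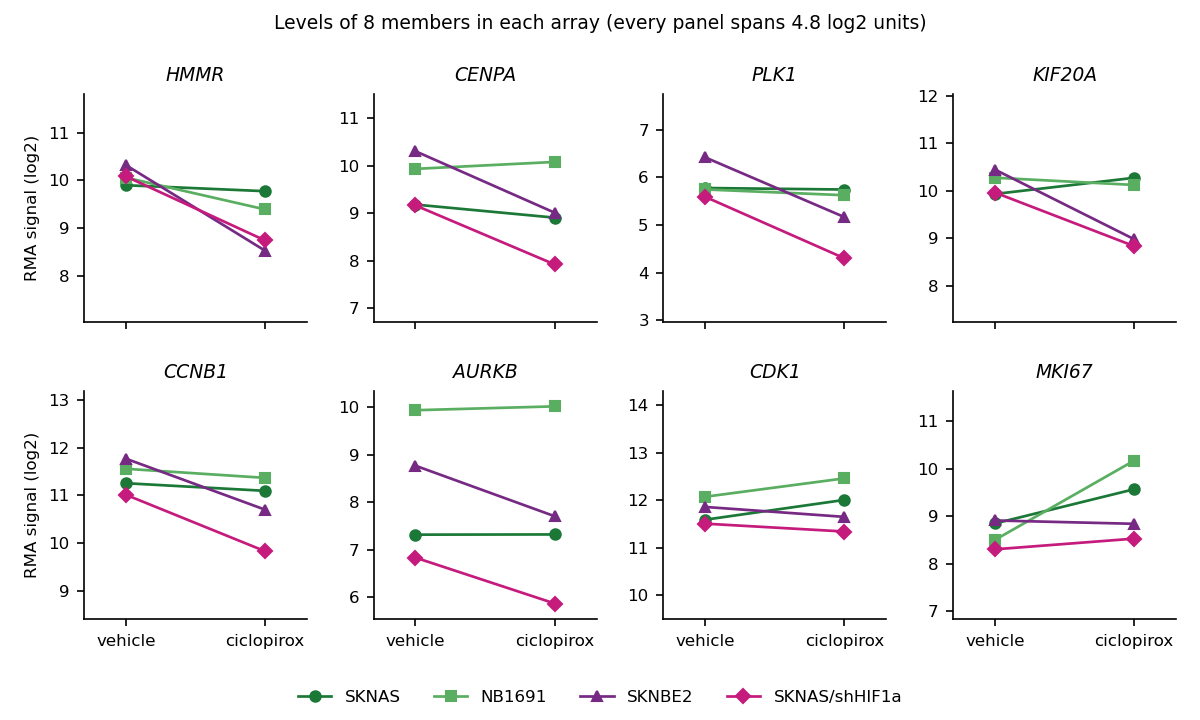
RMA signal (log2) of 8 genes in every array, vehicle on the left and ciclopirox on the right, with 1 line per cell line; every panel spans 4.8 log2 units. The SKNBE2 and SKNAS/shHIF1a lines slope down for HMMR, CENPA, PLK1, KIF20A, CCNB1 and AURKB, CDK1 slopes little in any line, and MKI67 slopes up in SKNAS and NB1691.

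The 5 checkpoint genes had medians of 0.09, 0.17, -0.37 and -0.66, and all 5 were lower in both SKNBE2 and SKNAS/shHIF1a. BUB1, a kinase that recruits checkpoint proteins to kinetochores, read 9.05, 9.12, 8.62 and 8.82 under vehicle and 9.02, 9.29, 7.07 and 7.87 under ciclopirox. The SKNBE2 pair was 2.93-fold apart and the SKNAS and NB1691 pairs nearly equal. BUB3, the partner that carries BUB1 to the kinetochore, read 11.33, 11.86, 11.51 and 11.79 under vehicle and 11.22, 11.81, 11.22 and 11.13 under ciclopirox. It was lower in all 4 lines, by at most 0.66, but 3 further probe sets above the filter were not. One with a mean level of 11.10 gave 0.11 in NB1691, one of 10.63 gave 0.091 in SKNAS and 0.26 in SKNBE2, and one of 9.47 gave 0.26 in SKNBE2. All 4 were below 0 in SKNAS/shHIF1a. BUB1B, MAD2L1 and TTK had changes between -0.61 and -0.20 in SKNBE2 and between -0.79 and -0.61 in SKNAS/shHIF1a.

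At the kinetochore and centromere, the 6 genes had medians of 0.04, 0.30, -0.96 and -0.98. CENPA, the histone variant that marks centromeres, read 9.18 in SKNAS, 9.93 in NB1691, 10.30 in SKNBE2 and 9.16 in SKNAS/shHIF1a under vehicle. The treated arrays gave 8.90 in SKNAS, 10.08 in NB1691, 9.01 in SKNBE2 and 7.92 in SKNAS/shHIF1a. The change was -0.27, 0.15, -1.29 and -1.24, so that SKNBE2 and SKNAS/shHIF1a were 2.45-fold and 2.36-fold lower (mean -0.67 ± 0.71, SD, n = 4 lines, adjusted p = 0.285). CENPE, the kinesin that carries chromosomes to the spindle equator, read 9.67, 9.20, 9.19 and 9.43 under vehicle and 9.75, 8.25, 7.80 and 8.72 under ciclopirox. Unlike most members it was also lower in NB1691, by 0.95, and only the SKNAS pair was nearly level. NUF2, a subunit of the NDC80 complex that binds microtubules, read 10.05, 10.92, 10.45 and 9.92 under vehicle and 10.10, 10.84, 10.19 and 9.30 under ciclopirox and differed by the most in SKNAS/shHIF1a, by -0.62.

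The other subunits of the same complex showed wider differences, and are named after their values were seen. NDC80 had changes of 0.031, 0.53, -0.65 and -1.35, and SPC25 had -0.23, 0.50, -1.27 and -1.41. SPC24, which is no member but is among the other kinetochore genes, had 0.36, -0.49, -0.63 and -1.19. It was thus lower in NB1691 as well, unlike NDC80 and SPC25, and its changes in NB1691 and SKNBE2 differed by only -0.14. SPC25 read 8.73, 8.70, 8.73 and 8.61 under vehicle, where the lines lay within 0.126, and 8.51, 9.20, 7.45 and 7.20 under ciclopirox. CENPF stayed between -0.42 and 0.46, while its second probe set (mean level 8.81) gave -0.040, 0.22, -0.38 and -1.28.

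The 3 chromosomal passenger genes had medians of 0.01, 0.49, -0.75 and -0.87. BIRC5, which encodes survivin, read 10.59, 10.63, 10.29 and 10.04 under vehicle and 10.60, 11.13, 9.54 and 9.17 under ciclopirox. CDCA8, which encodes borealin, read 8.09, 8.53, 8.37 and 8.21 under vehicle and 8.33, 8.94, 7.67 and 7.17 under ciclopirox. Both were higher in NB1691 and lower in SKNBE2 and SKNAS/shHIF1a. INCENP, the scaffold of the complex, had changes of 0.0053, 0.70, -1.002 and -0.13, and is the passenger gene with the smallest difference in SKNAS/shHIF1a.

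The 6 kinesins had medians of 0.15, -0.03, -0.66 and -1.003. KIF20A, which works in the midzone and cleavage furrow, read 9.93 in SKNAS, 10.27 in NB1691, 10.45 in SKNBE2 and 9.96 in SKNAS/shHIF1a under vehicle. In the treated arrays it was at 10.27 in SKNAS, 10.12 in NB1691, 8.98 in SKNBE2 and 8.84 in SKNAS/shHIF1a, which was 2.76-fold lower in SKNBE2 and 2.18-fold lower in SKNAS/shHIF1a. KIF2C, which shortens microtubules at centromeres, read 9.67, 10.20, 9.40 and 9.63 under vehicle and 10.33, 10.75, 8.90 and 9.22 under ciclopirox. Its changes of 0.66, 0.55, -0.50 and -0.41 nearly cancelled over the lines.

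KIF14, a kinesin of cytokinesis, read 9.54, 9.30, 9.04 and 9.39 under vehicle and 9.47, 8.67, 8.42 and 8.42 under ciclopirox. It was lower in all 4 lines, with NB1691 and SKNBE2 alike at -0.63 and -0.62, and it is 1 of the 2 members, with CDC25B, whose change in SKNBE2 was not below that in NB1691. KIF11, the motor that pushes spindle poles apart, had changes of -0.011, -0.19, -0.57 and -1.13. KIF4A had 0.27, 0.10, -0.70 and -1.03, and KIF23 was 1.63-fold and 1.76-fold lower in SKNBE2 and SKNAS/shHIF1a. A second KIF23 probe set, with a mean level of 4.23, gave -0.079 in SKNBE2 and 0.42 in SKNAS/shHIF1a, the opposite direction in SKNAS/shHIF1a.

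Of the 4 spindle and midzone genes, with medians of 0.22, 0.21, -0.68 and -0.81, HMMR differed by the most. HMMR, which encodes a spindle protein that also binds hyaluronan, read 9.90 in SKNAS, 10.06 in NB1691, 10.32 in SKNBE2 and 10.08 in SKNAS/shHIF1a under vehicle. The treated arrays gave 9.77 in SKNAS, 9.39 in NB1691, 8.52 in SKNBE2 and 8.74 in SKNAS/shHIF1a, which was 3.48-fold lower in SKNBE2 and 2.54-fold lower in SKNAS/shHIF1a. Its mean change of -0.98 ± 0.74 (SD, n = 4 lines) was the lowest of the members, with an adjusted p of 0.191. The 4 vehicle arrays lay within 0.42 of each other and all lay above the 4 treated arrays. A second HMMR probe set gave -0.24, -0.88, -2.10 and -1.43. PRC1, which bundles midzone microtubules, read 10.59, 11.00, 11.31 and 10.44 under vehicle and 10.70, 11.22, 10.82 and 9.70 under ciclopirox, with smaller differences in the same directions as most members. TPX2 and ANLN were both higher in SKNAS and NB1691 and lower in the other lines.

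The 6 genes of chromosome structure had medians of 0.09, 0.44, -0.30 and -0.72. SMC2, a core subunit of condensin, read 8.91, 8.95, 9.32 and 8.65 under vehicle and 8.61, 9.40, 9.24 and 7.69 under ciclopirox. SMC4, its partner in the same ring, read 11.18, 11.70, 11.62 and 11.10 under vehicle and 10.91, 11.83, 11.23 and 10.48 under ciclopirox. Both were lower in SKNAS, unlike most members, and lowest in treated SKNAS/shHIF1a. For SMC2 the direction in SKNAS depends on the probe set, since a second one (mean level 8.17) gave 0.061 there. The condensin I subunits NCAPG and NCAPH were 1.61-fold and 1.41-fold lower in SKNBE2 and 1.87-fold and 1.68-fold lower in SKNAS/shHIF1a. TOP2A, the topoisomerase that untangles sister chromatids, read 11.23, 12.55, 11.86 and 11.32 under vehicle and 11.57, 12.80, 11.66 and 10.62 under ciclopirox, and was lower by 0.70 in SKNAS/shHIF1a and by 0.20 in SKNBE2. A TOP2A probe set with a mean level of 11.08 gave -0.76 and -0.28 in these lines. Another, with a mean level of 4.01, gave 0.16 and 0.11, the opposite direction.

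MKI67, the proliferation marker Ki-67, was the 1 member above 0 in SKNAS/shHIF1a, and its largest difference was in NB1691. It read 8.85 in SKNAS, 8.50 in NB1691, 8.91 in SKNBE2 and 8.30 in SKNAS/shHIF1a under vehicle. Under ciclopirox it read 9.57 in SKNAS, 10.17 in NB1691, 8.84 in SKNBE2 and 8.53 in SKNAS/shHIF1a, a change of 0.72, 1.67, -0.07 and 0.22 (mean 0.64 ± 0.76, SD, n = 4 lines, adjusted p = 0.312). This value belongs to the brightest of 4 MKI67 probe sets, and the others were all below 0 in SKNAS/shHIF1a. A probe set with a mean level of 7.09 gave 0.76, 0.83, -0.44 and -0.06, one of 6.79 gave 0.15, 0.06, -1.15 and -1.08, and one of 5.91 gave 0.19, 0.32, -0.98 and -1.38. In SKNBE2 and SKNAS/shHIF1a the changes of the last pair of probe sets thus lay about as far below 0 as those of PLK1 or CCNB1. The labelling reaction starts at the 3′ end of transcripts; the position of each probe set along MKI67 was not used here.

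The 4 genes of anaphase and exit had medians of 0.35, 0.05, -0.62 and -0.57. CDC20, the activator of the anaphase-promoting complex that the checkpoint holds back, read 10.17, 10.20, 10.20 and 10.03 under vehicle, where the lines lay within 0.18. Under ciclopirox it read 10.35, 10.22, 8.90 and 9.41, and the SKNBE2 array was the lowest. PTTG1, which encodes securin, read 11.60, 12.23, 12.29 and 11.48 under vehicle and 11.996, 12.22, 11.58 and 11.14 under ciclopirox. UBE2C, the ubiquitin-conjugating enzyme of the complex, read 11.14, 12.14, 11.99 and 11.02 under vehicle and 11.66, 12.55, 11.45 and 10.47 under ciclopirox. UBE2C was higher by 0.52 and 0.42 in SKNAS and NB1691 and lower by 0.53 and 0.54 in SKNBE2 and SKNAS/shHIF1a, so that its mean over the lines was near 0. ESPL1, which encodes separase, was 1.29-fold and 1.52-fold lower in the latter lines.

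**Figure D3:**
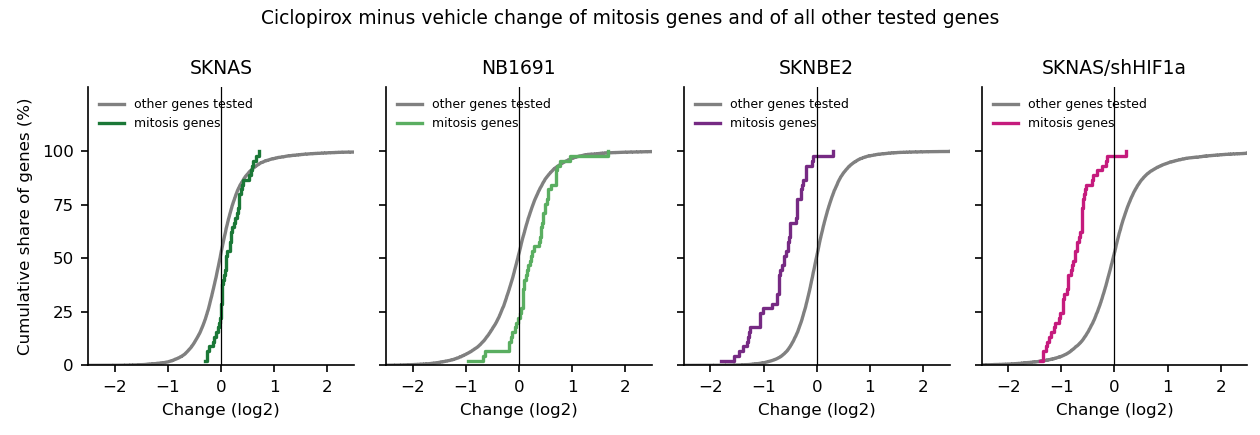
Cumulative share (%) of genes against the change from vehicle to ciclopirox (log2) in each cell line, coloured for the 45 mitosis genes and grey for the other genes tested. The coloured curve lies left of the grey one in SKNBE2 (median -0.61) and SKNAS/shHIF1a (median -0.75) and right of it in SKNAS (0.09) and NB1691 (0.22).

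Other probe sets of the same genes gave a further reading. Above the filter there were 37 of them in 24 members. Their sign matched that of the brightest probe set for 32 of 37 in SKNAS, 31 in NB1691, 32 in SKNBE2 and 30 in SKNAS/shHIF1a. Their medians were 0.14, 0.29, -0.56 and -0.68, close to those of the brightest probe sets. Probe sets of 1 gene share the array and the sample, and are not replicates.

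The order of the members by change was partly shared between lines. Across the 45 genes, which are not independent replicates, Pearson's r between the changes in SKNBE2 and SKNAS/shHIF1a was 0.538 (Spearman's rho 0.54), against 0.223 across all genes tested. Between SKNAS and SKNAS/shHIF1a it was 0.629 (rho 0.635), against 0.69 across all genes. The other pairs of lines lay between 0.38 and 0.451 for the members, against 0.185 to 0.253 across all genes. A higher r among the members was thus not particular to SKNBE2 and SKNAS/shHIF1a. No line shared an array with another, but all arrays share the platform and its probe sets.

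SKNAS/shHIF1a and its parent SKNAS had near levels of mitosis genes under vehicle, with a median difference of -0.12 and a range from -0.55 (ANLN) to 0.46 (BUB3). Under vehicle 31 members were lower in the derivative, where 50.8% of all genes were, and none was 2-fold lower, where 3.02% of genes were. Under ciclopirox the median difference was -1.03, from -1.48 (AURKA) to -0.09 (BUB3). All 45 members were lower in the treated derivative, against 49.9% of genes, and 25 were at least 2-fold lower, against 4.23%. The change in SKNAS/shHIF1a lay below that in SKNAS for 45 of 45 members (49.6% of all genes), and at least 2-fold below for 18 (40%, against 2.74%).

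NB1691 and SKNBE2, both labelled N-Myc, also parted under the drug. Under vehicle the median difference of SKNBE2 from NB1691 was -0.06, from -1.17 (AURKB) to 0.78 (FOXM1). In that state 26 members were lower in SKNBE2, against 49% of genes, and 1 was 2-fold lower, against 12.6%. Under ciclopirox the median was -1.08, from -2.31 (AURKB) to -0.08 (MAD2L1). All 45 were then lower in SKNBE2, again against 49% of genes, and 24 were at least 2-fold lower, against 11.9%. The change in SKNBE2 lay below that in NB1691 for 43 members (95.6%), against 47.7% of all genes, and at least 2-fold below for 23 (51.1%), against 4.17%. Each of these differences rests on 4 arrays, 1 per line and treatment, and has no replicate check.

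**Figure D4:**
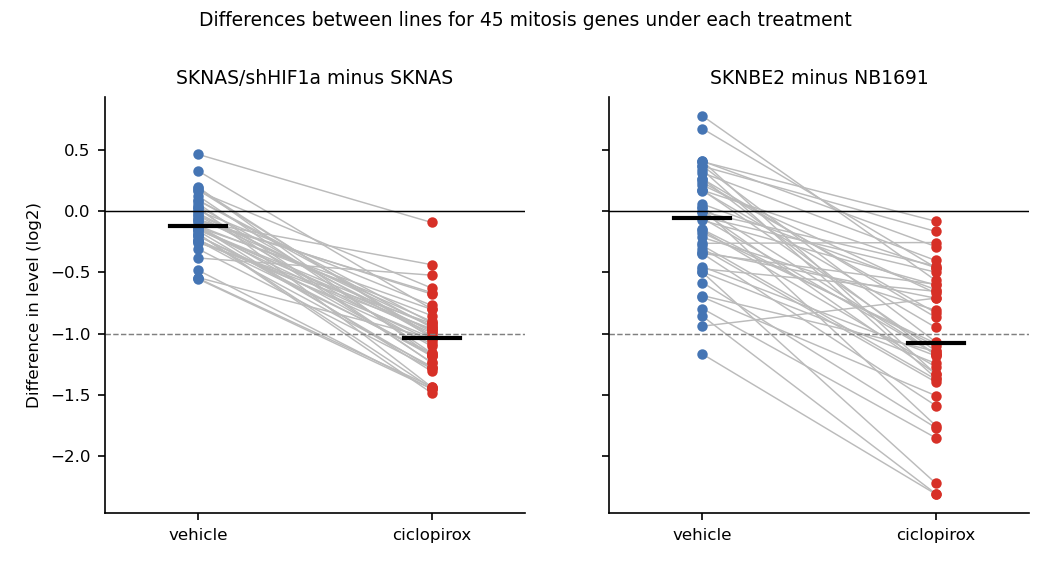
Difference in level (log2) between SKNAS/shHIF1a and SKNAS, and between SKNBE2 and NB1691, under vehicle and ciclopirox, with 1 point per gene, grey lines joining a gene and a black bar at the median; the dashed line marks 2-fold lower. Under ciclopirox all 45 points lie below 0 in both panels, with medians of -1.03 and -1.08.

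The order of the lines followed these differences. Under vehicle NB1691 had the highest level of 22 members, where it was highest for 29.8% of all genes, and SKNAS/shHIF1a the lowest of 25, where it was lowest for 21.9%. Under ciclopirox NB1691 was highest for 37 members, against 30.1% of genes, and SKNAS/shHIF1a lowest for 38, against 24.1%. For the rest of the members under ciclopirox, SKNAS was highest (8) and SKNBE2 was lowest (7).

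The test of the difference in response that the design allows sets the changes of SKNAS and SKNAS/shHIF1a against those of NB1691 and SKNBE2. It calls 5 genes (0.0344%), and no member, the smallest adjusted p among them being 0.462 (limma). No member passed an unadjusted p of 0.05 in it either. That split puts a line in which mitosis genes were lower and one in which they were not on each side. A test by the grouping seen in the data was not made, since it would define groups by the outcome.

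Levels over both treatments were compared between the lines, with treatment in the fit. Each line enters with 1 vehicle and 1 ciclopirox array in place of replicates, so the p-values may treat arrays as more separate than they are. Between SKNAS/shHIF1a and SKNAS 230 genes passed (1.58%), and no member, with a smallest adjusted p of 0.217. Between NB1691 and SKNBE2 3640 genes passed (25.1%), with 12.9% of all genes higher in NB1691 and 12.2% lower. Members past the test were 3 (6.67%), all higher in NB1691, a share below that of all genes. AURKB was higher by 1.74 ± 0.34 (SE, adjusted p = 0.0162), with means of 9.97 and 8.24. NEK2 was higher by 1.58 ± 0.38 (adjusted p = 0.0293) and KIF2C by 1.32 ± 0.34 (adjusted p = 0.0382). All 3 also had lower treated levels in SKNBE2, so the mean difference of the lines holds part of the difference in response.

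Between the SKNAS-derived lines and NB1691 with SKNBE2, 6643 genes passed (45.8%), with 22.8% of all genes higher in the SKNAS-derived lines and 23% lower. Members past the test were 11 (24.4%), 10 of them lower in the SKNAS-derived lines. The SKNAS-derived lines are a parent and its derivative and are not independent, and each line enters with both of its arrays. The p-values of this comparison therefore treat the arrays as more separate than they are. AURKB had the largest difference of the members, -2.27 ± 0.24 (SE, adjusted p = 0.000839). CENPA was lower by 1.04 ± 0.28 (adjusted p = 0.0249), TOP2A by 1.03 ± 0.20 (adjusted p = 0.0081) and UBE2C by 0.96 ± 0.23 (adjusted p = 0.018). NUF2, PRC1 and SMC2 had differences of -0.76, -0.73 and -0.76. CENPE was the 1 member higher in the SKNAS-derived lines, by 0.79 ± 0.24 (adjusted p = 0.0416). CCNB2, SMC4 and ESPL1 also passed. The calls of CCNB2, SMC2 and SMC4 ended when all probe sets of a gene were averaged (adjusted p = 0.264, 0.103 and 0.33), and those of CENPE and ESPL1 with no level filter (adjusted p = 0.0524 and 0.0504).

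Genes of the wider pathway were read from lists of names. In the comparison of ciclopirox with vehicle, none of their members passed the test in either direction. The 22 other genes of the spindle and cytokinesis had medians of 0.23, 0.26, -0.54 and -0.68 in the order given above, near those of the members. All 22 had a change in SKNAS/shHIF1a below that in SKNAS and a change in SKNBE2 below that in NB1691. KIF15, a spindle kinesin, had the largest mean change of the list, with -0.74, 0.22, -0.39 and -1.63 in the 4 lines (adjusted p = 0.315). The 15 other mitotic regulators had medians of 0.12, 0.32, -0.42 and -0.60. CCNF, the F-box protein cyclin F, had 0.19, 0.12, -1.01 and -1.35. The 24 other kinetochore genes had medians of 0.05, 0.26, -0.29 and -0.55, and OIP5, a centromere assembly factor, was lower in all 4 lines (-0.16, -0.40, -0.55 and -1.13).

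The 33 DNA replication genes shared the line differences in part. Their medians were -0.27, 0.30, -0.25 and -0.75, so that they were lower in SKNAS as well. The change in SKNAS/shHIF1a lay below that in SKNAS for 32 of 33, and that in SKNBE2 below that in NB1691 for 31 of 33. POLE2, a subunit of DNA polymerase epsilon, read 8.69, 8.68, 9.498 and 8.41 under vehicle and 7.78, 8.62, 8.70 and 6.81 under ciclopirox. Its mean change was -0.85 ± 0.25 (SE) with an adjusted p of 0.198.

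Medians lay closer together between lines for cohesin, the other condensin subunits and the anaphase-promoting complex. The 15 genes of cohesin and its regulators had medians of -0.14, 0.08, -0.15 and -0.35, and the 4 other condensin subunits 0.01, 0.03, -0.26 and -0.41. STAG1, a subunit of cohesin, was lower in every line (-1.16, -0.65, -0.47 and -1.55, adjusted p = 0.153). NCAPD2, of condensin I, had 0.25, -0.11, -0.65 and -0.47. The 17 genes of the anaphase-promoting complex and its regulators had nearly the same median in each line, -0.25, -0.17, -0.21 and -0.22. ANAPC15, a small subunit, was lower in all 4 lines by 0.55, 1.13, 0.91 and 1.26 (mean -0.96 ± 0.15 (SE), adjusted p = 0.129).

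The 19 genes of the DREAM, MuvB and E2F regulators, a group known for its part in cell cycle transcription, had medians of -0.25, 0.17, 0.01 and -0.33. Their action on the members was not tested. RBL1, which encodes the pocket protein p107, was lower in all 4 lines, by 1.66 in SKNAS/shHIF1a. Of 15 listed CDK inhibitors and D and E cyclins, 13 were tested, with medians of 0.19, -0.10, 0.22 and -0.33. CDKN1A, the CDK inhibitor p21, read 6.03 in SKNAS, 9.17 in NB1691, 5.58 in SKNBE2 and 6.36 in SKNAS/shHIF1a under vehicle. In the treated arrays it was at 8.92 in SKNAS, 10.89 in NB1691, 6.90 in SKNBE2 and 9.56 in SKNAS/shHIF1a. It was higher in every line, by 2.89, 1.72, 1.32 and 3.20 (mean 2.28 ± 0.34 (SE)), and its adjusted p of 0.121 missed the threshold. Another inhibitor gene of the list, CDKN2B, which encodes p15 and is named after its values were seen, had changes of 1.56, -0.49, 0.69 and 3.61 (adjusted p = 0.315), 2.04 more in SKNAS/shHIF1a than in SKNAS. CDKN1A differed by 0.30 between the changes of these lines. The part of either gene in the differences of the mitosis genes was not tested.

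**Figure D5:**
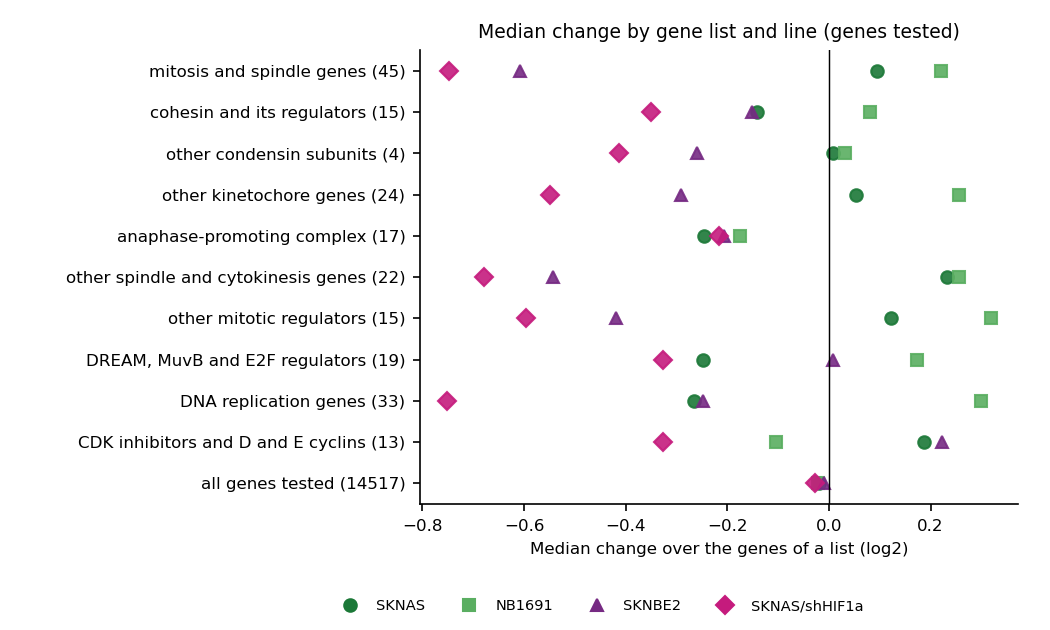
Median change from vehicle to ciclopirox (log2) over the tested genes of each list, with the number of genes in brackets and 1 marker per cell line. The markers of SKNBE2 and SKNAS/shHIF1a lie left of those of SKNAS and NB1691 for the mitosis genes and the other spindle and cytokinesis genes. The same holds for the other mitotic regulators, kinetochore genes and condensin subunits, and for cohesin, where SKNAS and SKNBE2 nearly coincide. All 4 lie together for the anaphase-promoting complex and for all genes.

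The same lists also held line differences in level. Against NB1691 and SKNBE2, the SKNAS-derived lines had lower levels of all 4 other condensin subunits, NCAPD2 by 1.82 ± 0.18 (SE, adjusted p = 0.000597, limma) and NCAPD3 by 1.74 ± 0.15 (adjusted p = 0.000345). Of the DNA replication genes 14 were lower and 2 higher, with PRIM1, a primase subunit, lower by 2.65 ± 0.23 (adjusted p = 0.000412). Of the 24 other kinetochore genes 10 were lower and 1 higher, and of the 22 other spindle and cytokinesis genes 8 were lower and 1 higher. Between SKNAS/shHIF1a and SKNAS, CDKN2A, which encodes the CDK4 and CDK6 inhibitor p16, was the 1 gene of all these lists that passed, higher by 1.75 ± 0.21 (adjusted p = 0.02). Beside the 45.8% of all genes that differed by origin, these shares are a description of the lines.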

How the data were processed

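RNA of 4 neuroblastoma lines, each under vehicle and ciclopirox, was read on 8 Affymetrix arrays. The values are log2 signals that the authors deposited, made by RMA (a robust average over the probes of a set) as named in the submitters' processing notes, and no scaling was added. Of 54715 probe sets 40914 carried exactly 1 gene symbol. Each gene was read from its brightest probe set, and genes whose mean lay under log2 3.208, the 40th percentile over probe sets, were left out. Tests were made in R 4.3.3 with limma 3.58.1 (lmFit and eBayes, two-sided, Benjamini-Hochberg over all 14517 genes, threshold 0.05), after the script had been tested on simulated data. Vehicle and ciclopirox arrays were paired by cell line, which left 3 residual and 2.98 prior degrees of freedom. The difference in response had 2 residual degrees of freedom. The members and lists were chosen with earlier results of these data known, so no list was tested as a set and no p was adjusted over a list. Members given with a value in every array were those with the 2 largest mean changes in size in each of 9 function groups, those past a test (the 8 largest where more passed) and 9 fixed genes. In pathway lists, up to 2 genes past a test were eligible, or the one with the largest mean change. Other members are named after their values were seen. A level filter, the choice of probe set, scaling and leaving out each line were varied as alternatives.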

Additional observations from a re-analysis of the deposited data

Results flagged for a closer look

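Of 144 groups of 4 arrays looked at (the level under each treatment and the change of all 45 members, and the median change of their 9 function groups), 3 (2.08%) held an array whose gap to the nearest other was above Dixon's critical value for 4 samples. Chance gives about 1 in 20. NEK2 under vehicle was 10.60 in NB1691, against 9.65 to 9.81 in the other lines. BUB3 under ciclopirox was 11.81 in NB1691, against 11.13 to 11.22 in the others. CDC20 under vehicle was 10.03 in SKNAS/shHIF1a, against 10.17 to 10.20 in the others, a gap that is small in size.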

How the results depend on the processing

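With 1 array per line and treatment, the comparison of ciclopirox with vehicle called 0 genes under each of its alternatives, among them no cell line block, no level filter, quantile normalization and leaving out each line; in the replicate block by cell line and in the fit without it the count was 0. The members' median mean change stayed below 0 throughout, from -0.41 without NB1691 to -0.06 without SKNAS/shHIF1a. Within lines, the members at least 2-fold lower in SKNBE2 were 8 with the mean of all probe sets in place of 12. Over all comparisons, 92 alternative values of counts and medians stayed within 1.5 times for a count, or within the spread between lines for a median, and 7 moved. The count between SKNAS/shHIF1a and SKNAS was 393 with only the arrays of those lines, that of members between NB1691 and SKNBE2 was 5 with the mean of probe sets, and that of the response difference was 9 with the mean of probe sets and 0 to 0 without each line.

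For single genes, 373 alternative values kept their direction and side of the threshold, 5 lost a call (given beside the result) and 17 turned sign, all of them means over lines that had not passed the test. With the second brightest probe set CDK1 was -0.040 and AURKB 0.38. With the mean of probe sets TOP2A was 0.017 and MKI67 -0.015. UBE2C was 0.0036 with quantile normalization, and FOXM1 was 0.067 with SKNAS and its derivative averaged. Leaving out each line in turn gave -0.39 to 0.23 for FOXM1, -0.14 to 0.34 for NEK2, -0.12 to 0.27 for KIF2C, -0.45 to 0.020 for SMC2, -0.22 to 0.13 for TOP2A, -0.35 to 0.017 for PTTG1 and -0.22 to 0.13 for UBE2C. The cause of these turns was not tested.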
